A study of Mus musculus with 11 samples.

Results

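The 10 genes described here are known for high expression in fat cells: Adipoq, Cfd, Retn, Lep, Plin1, Cidec, Scd1, Pck1, Fabp4 and Car3. They were chosen by name as a group of fat cell genes lower after treatment, and each is measured by 1 probe set whose gene symbol equals the name, which gives 10 of the 28350 probe sets on the array and 10 of 21759 genes with a symbol. The name of the group fits 8 of the 10 in direction, since the mean signals of Fabp4 and Car3 were higher, not lower, in the treated mice. Messenger RNA was measured with Affymetrix Mouse Gene ST 1.1 arrays in tibialis anterior (TA) muscle, a muscle of the lower leg, from 11 male mice of 14 weeks of age with 1 array per mouse. The mice were 3 untreated wild-type mice (called C57), 4 untreated mdx mice, and 4 mdx mice given Pip6e-PMO in 1 tail vein injection of 12.5 mg/kg at 12 weeks of age (called treated, and T1 to T4 singly). The labels give the strain of all 11 as C57/B10, while the methods name a separate mdx line on a C57/Bl10ScSn background. The mdx mouse is a model of Duchenne muscular dystrophy that carries a nonsense mutation in exon 23 of Dmd, and Pip6e-PMO is an antisense morpholino joined to a cell-penetrating peptide that makes splicing skip that exon. The labels give the controls no injection, so the injection and the compound cannot be told apart. RNA came from cryosections of the middle of the muscle belly, with all its cell types, and in such bulk samples fewer fat cells and less RNA per fat cell cannot be told apart.

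White fat cells store triglyceride in 1 large lipid droplet and release it as fatty acids when other tissues need fuel. They also secrete hormones, the adipokines. In skeletal muscle, fat cells lie between the fibres and along vessels and nerves, can arise from fibro-adipogenic progenitors, and are a minor part of a healthy limb muscle. The muscle fibre itself makes little or none of the secreted adipokines, but it does make Car3 in quantity, and Fabp4 is also known from the endothelium of capillaries. Much of the fat cell programme is controlled by PPARG and by the C/EBP proteins.

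The 11 arrays had median intensities of 27.5 to 28.6, and 48.2% to 49.2% of the probe sets on each reached a signal of 30. T2 stood apart from its group, with a typical deviation from its group mates of 0.381 on the log2 scale against 0.153 to 0.257 for the other 10 arrays. The paper reports that its treated sample T2 had the lowest efficacy by RT-qPCR of exon skipping and by mass spectrometry of dystrophin. Its western blot values did not correlate significantly with either. It also reports the least restoration of mRNAs in T2. Why T2 stood apart was not tested here. Dmd itself had mean log2 signals of 5.82 ± 0.05 in C57 (SD, n = 3), 5.28 ± 0.50 in mdx (SD, n = 4) and 5.80 ± 0.37 in treated mice (SD, n = 4). Neither the mdx nor the treatment difference of Dmd passed limma's test across all probe sets (adjusted p = 0.198 and 0.142), and a probe set over the whole gene does not read the skipped exon. Muscle fibre markers were strong in all 11 mice.

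The promoters of the group were examined because several of its genes varied together between mice, as described further on. The RefSeq table of mouse promoters (GRCm38.p6) held 7 of the 10 genes with 8 start sites, and 3 genes, Fabp4, Scd1 and Car3, were not matched. The 250 bases before each start were searched on both strands for TTGCNNAA, a form of the C/EBP site. It occurred in 3 of the 8 promoters, those of Lep, Plin1 and 1 of Cidec, and in 9.56% of 32851 mouse promoters of the same length. In Lep it covered bases -55 to -48 before the start, and Plin1 held 1 match at -58 to -51 and another at -187 to -180. CCAAT, which can share letters with that motif, occurred in 1 of the 8 promoters, that of Adipoq with 3 matches, and in 33.8% of all promoters. AGGTCA, the half-site that PPARG and other nuclear receptors bind, occurred in 0 of the 8 and in 14% of all promoters. A match describes letters only, and a missing match says nothing about a factor. The 3 promoters below are printed 5′ to 3′ on the strand of the gene because they hold the matches nearest to a start, with TTGCNNAA in capitals for Plin1 and Lep, and CCAAT or its reverse complement in capitals for Adipoq.
Plin1 chr7:79732777-79733026 (-): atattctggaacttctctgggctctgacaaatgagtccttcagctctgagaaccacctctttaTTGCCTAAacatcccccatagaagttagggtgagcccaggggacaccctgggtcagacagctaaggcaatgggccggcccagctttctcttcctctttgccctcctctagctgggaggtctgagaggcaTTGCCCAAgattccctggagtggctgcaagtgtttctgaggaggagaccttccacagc
Lep chr6:29059971-29060220 (+): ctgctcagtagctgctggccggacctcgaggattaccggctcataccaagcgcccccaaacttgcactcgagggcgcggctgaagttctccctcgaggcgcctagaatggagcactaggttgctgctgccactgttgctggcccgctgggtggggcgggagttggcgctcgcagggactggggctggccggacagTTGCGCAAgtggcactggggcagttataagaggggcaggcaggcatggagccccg
Adipoq chr16:23146286-23146535 (+): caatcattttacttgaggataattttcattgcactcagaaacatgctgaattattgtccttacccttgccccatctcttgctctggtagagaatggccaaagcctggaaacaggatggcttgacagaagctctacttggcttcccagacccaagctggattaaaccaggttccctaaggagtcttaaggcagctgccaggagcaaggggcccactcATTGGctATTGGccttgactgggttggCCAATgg

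Adiponectin, complement factor D and resistin are secreted proteins made by fat cells, and their messages were lower in the treated mice than in mdx mice by 3.11-fold, 3.83-fold and 3.13-fold. Between mdx and C57 mice the same 3 messages differed by less than the spread between mice. Adipoq, on chromosome 16, encodes adiponectin, which raises insulin sensitivity. Its log2 signal was 6.85, 6.34 and 5.89 in C57 mice 1 to 3, 5.64, 6.96, 6.69 and 6.95 in mdx mice 1 to 4, and 4.95, 5.78, 4.24 and 4.72 in T1 to T4. Of the mdx mice, mdx 1 lay well below the other 3, and T2 was the highest treated mouse and stood just above mdx 1, so the groups overlapped by that pair. The mean fell from 6.56 ± 0.63 in mdx to 4.92 ± 0.64 in treated mice (SD, n = 4 each), a log2 difference of -1.64 with a standard error of 0.35 (limma, adjusted p = 0.0199). All 4 treated mice lay below the lowest C57 mouse, and the treated minus C57 difference was -1.44 (limma, adjusted p = 0.0187).

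Cfd, on chromosome 10, encodes complement factor D or adipsin, a serine protease of the alternative complement pathway. Its log2 signal was 8.47, 7.90 and 7.76 in C57 mice, 7.38, 9.19, 9.0 and 8.85 in mdx mice, and 6.47, 7.90, 6.11 and 6.19 in treated mice. The 3 treated mice other than T2 were below every untreated mouse, while T2 equalled C57 2 and exceeded mdx 1. The treated minus mdx difference of -1.94 (SE 0.43) passed the test (limma, adjusted p = 0.0224), whereas the treated minus C57 difference of -1.38 did not (limma, adjusted p = 0.0503). In mdx the mean was higher than in C57 by 0.56, which did not pass (limma, adjusted p = 0.523).

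Retn, on chromosome 8, encodes resistin, an adipokine of mouse fat cells that opposes insulin action. It gave 7.84, 7.51 and 6.77 in C57, 6.53, 8.17, 7.86 and 8.04 in mdx, and 6.01, 7.04, 5.26 and 5.70 in treated mice. Within each group the order of the mice was that of Adipoq, with mdx 1 the lowest mdx mouse and T2 the highest treated mouse. Retn fell by 1.65 (SE 0.41) from mdx to treated mice on the log2 scale (limma, adjusted p = 0.0305). It was also lower in treated than in C57 mice, by a difference of -1.37 (limma, adjusted p = 0.0432), although T2 exceeded C57 3.

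Lep, on chromosome 6, encodes leptin, the hormone that reports fat stores to the brain. Its signal was low throughout, with 5.57, 4.50 and 4.21 in C57, 3.78, 4.37, 3.75 and 5.44 in mdx, and 3.68, 4.36, 3.47 and 3.18 in treated mice. No group mean reached a signal of 30, which is why this gene was the only one of the 10 that was not tested. The means were 4.76 ± 0.72 (SD, n = 3), 4.34 ± 0.79 and 3.67 ± 0.50 (SD, n = 4 each), and the treated mice overlapped both other groups in part. T2 was again the highest of the treated mice.

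The 2 genes of the lipid droplet coat fell with treatment. Plin1, on chromosome 7, encodes perilipin 1, which covers the droplet and controls the access of lipases. Its log2 signal was 6.82, 6.56 and 6.37 in C57, 5.69, 7.24, 6.89 and 6.92 in mdx, and 5.30, 6.03, 4.27 and 4.90 in treated mice. T2 alone overlapped the mdx range, through mdx 1, and all treated mice were below all C57 mice. The treated minus mdx difference was -1.56 (SE 0.37) and the treated minus C57 difference was -1.46 (limma, adjusted p = 0.0254 and 0.0208).

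Cidec, also on chromosome 6, encodes a protein that fuses small droplets into a large one. It gave 7.06, 6.47 and 6.43 in C57, 5.64, 7.05, 6.95 and 7.24 in mdx, and 5.16, 6.10, 4.88 and 5.22 in treated mice. The picture was that of Plin1, with 1 overlapping pair, mdx 1 and T2, and none between treated and C57 mice. Cidec was 2.60-fold lower in treated than in mdx mice, a difference of -1.38 (SE 0.34), and its treated minus C57 difference was -1.31 (limma, adjusted p = 0.0289 and 0.0237). The mdx minus C57 differences of the droplet genes were 0.10 for Plin1 and 0.07 for Cidec and did not pass (limma, adjusted p = 0.921 and 0.946).

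**Figure D1:**
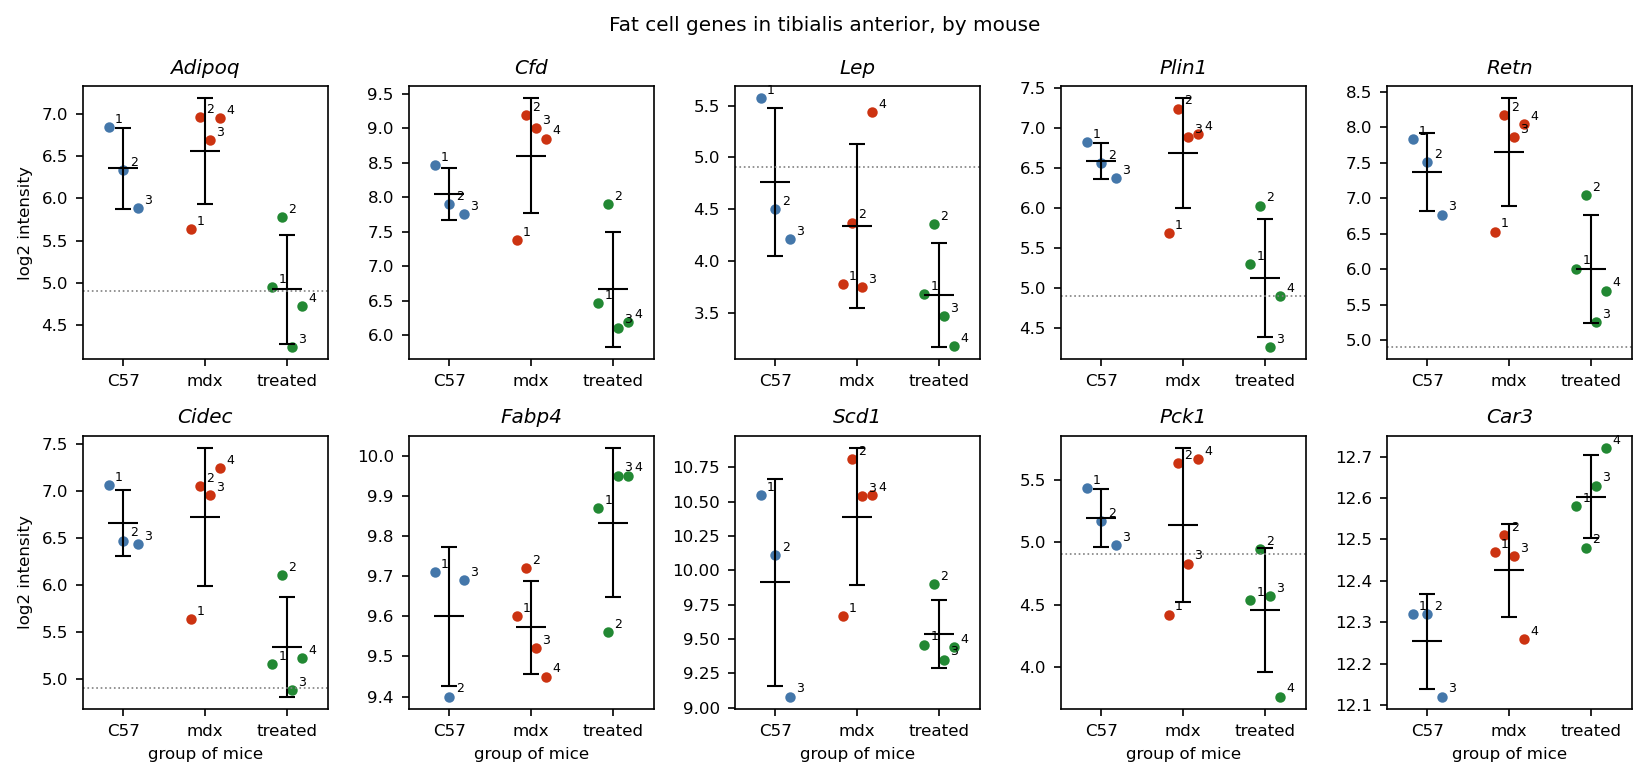
Log2 intensity of each of the 10 fat cell genes in every mouse, 1 panel per gene, with the group on the horizontal axis, the replicate number beside each point, and bars for the mean ± SD (n = 3 C57, 4 mdx, 4 treated). The dotted line is a signal of 30. In Adipoq, Cfd, Retn, Plin1 and Cidec, mdx 1 lies below the other mdx mice and T2 above the other treated mice.

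The enzymes Scd1, Pck1 and Car3 did not pass the test between treated and mdx mice. Scd1, on chromosome 19, encodes the desaturase that makes oleate from stearate. On the log2 scale it read 10.55, 10.11 and 9.08 in C57, 9.67, 10.81, 10.54 and 10.55 in mdx, and 9.46, 9.90, 9.35 and 9.44 in treated mice. The 3 treated mice other than T2 were below all mdx mice, but C57 3 was the lowest mouse of all, so treated and C57 mice overlapped widely. The treated minus mdx difference was -0.86 (SE 0.30; limma, adjusted p = 0.08), and it passed when T2 was left out (-0.98, adjusted p = 0.0415), as it did without mdx 1, without C57 3, or with array weights (adjusted p = 0.00745). Array weights also raised the lower calls among the 65 other fat cell genes described further on, from 5 to 15.

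Pck1, on chromosome 2, encodes the cytosolic phosphoenolpyruvate carboxykinase, which in fat cells feeds glyceroneogenesis. It gave 5.44, 5.17 and 4.98 in C57, 4.42, 5.64, 4.83 and 5.67 in mdx, and 4.54, 4.95, 4.57 and 3.76 in treated mice. All treated mice were below all C57 mice, but by little in T2, and the mdx mice overlapped both groups, with T4 below all of them. The treated minus mdx difference of -0.69 and the treated minus C57 difference of -0.74 (SE 0.30 and 0.32) did not pass (limma, adjusted p = 0.137 and 0.105). The first passed with array weights (adjusted p = 0.0483), a fit that called more of the other fat cell genes lower as well.

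Car3, on chromosome 3, encodes a carbonic anhydrase abundant in fat cells and in slow muscle fibres. On the log2 scale it stood at 12.32, 12.32 and 12.12 in C57, 12.47, 12.51, 12.46 and 12.26 in mdx, and 12.58, 12.48, 12.63 and 12.72 in treated mice. Here every treated mouse exceeded every C57 mouse, and T2 was the lowest treated mouse. Car3 rose by 0.35 (SE 0.10) from C57 to treated mice (limma, adjusted p = 0.0262), while the treated minus mdx difference of 0.18 did not pass (limma, adjusted p = 0.211).

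Fabp4, on chromosome 3 as well, encodes a fatty acid carrier of fat cells and capillary endothelium. Its log2 signal was 9.71, 9.40 and 9.69 in C57, 9.60, 9.72, 9.52 and 9.45 in mdx, and 9.87, 9.56, 9.95 and 9.95 in treated mice. T1, T3 and T4 were higher than all untreated mice, and T2 fell within the untreated range. The treated minus mdx difference was 0.26 (SE 0.11; limma, adjusted p = 0.143), and without T2 it was 0.35 and passed (limma, adjusted p = 0.0265).

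In the treated minus mdx comparison 5 of the 10 genes were called lower at an adjusted p under 0.05 (Adipoq, Cfd, Retn, Plin1 and Cidec) and 0 higher, and the median difference over the 10 was -1.12 against 0.02 over all 14494 probe sets tested. The background was 3.88% of all tested probe sets called lower and 7.26% called higher. Since the group was named for this direction with results of these arrays known, its count is a description and is not read against that background. At an unadjusted p under 0.05, limma gave 7 lower and 1 higher, the last being Fabp4. The same limit gave 1881 lower and 2684 higher over all 14494 probe sets tested. In 0 of the 10 genes were treated and mdx mice fully separated, beside 6.69% of all tested probe sets with every treated mouse lower and 9.29% with every treated mouse higher.

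Leaving out 1 mouse changed these values. Without T2 the differences grew to -1.92 for Adipoq, -2.35 for Cfd, -1.86 for Plin1, -1.99 for Retn and -1.63 for Cidec. Without mdx 3, mdx 4, T3 or T4 each of the 5 lost its call, as did Cfd without T1, and Plin1, Retn and Cidec without mdx 2 or T1, with adjusted p of at most 0.0859 and differences that all remained negative. With the methods' t-test on log2 signals, 6 of the 10 genes, these 5 and Scd1, were lower at an unadjusted p under 0.05, the criterion of the methods, and 0 higher. Over all 14494 probe sets tested, that criterion gave 1525 lower and 2107 higher. After Benjamini-Hochberg adjustment that test called 0 (adjusted p from 0.123 to 0.148 for the 5).

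Between mdx and C57 mice limma called 0 of the 10 lower and 0 higher, where 4.96% and 7.06% of all tested probe sets were called, and 0 passed at an unadjusted p under 0.05 by limma or by the methods' t-test. The median difference was 0.14, with 3 genes lower and 7 higher in mdx. The largest was that of Cfd, at 0.56. The C57 mice varied among themselves in parallel, since C57 1 was the highest C57 mouse in 9 of the 10 genes and C57 3 the lowest in 9.

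In treated minus C57 mice, 4 genes were called lower (Adipoq, Retn, Plin1 and Cidec) beside 8.96% of all tested probe sets, and 1 higher (Car3) beside 15.6%. The median difference was -1.20 against 0.00 over all probe sets. Treated and C57 mice did not overlap in 5 genes, lower in Adipoq, Plin1, Cidec and Pck1 and higher in Car3, beside 14.1% of all tested probe sets fully lower and 17.9% fully higher. The treated mice are the same in this comparison and in treated minus mdx, so the values of one are not independent of the other. Each of the 4 lower calls was lost without C57 1 or C57 2, with adjusted p of at most 0.127, and further mice ended the calls of Plin1 (T3 or T4), Retn (mdx 3, T1, T3 or T4) and Cidec (C57 3, T1, T3 or T4). The Car3 call was lost without C57 2, C57 3, T3 or T4. Cfd gained a call as lower without T2 or without mdx 1, and without T2 so did Pck1 as lower and Fabp4 as higher (limma, adjusted p = 0.00624, 0.0495 and 0.0407 without T2).

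**Figure D2:**
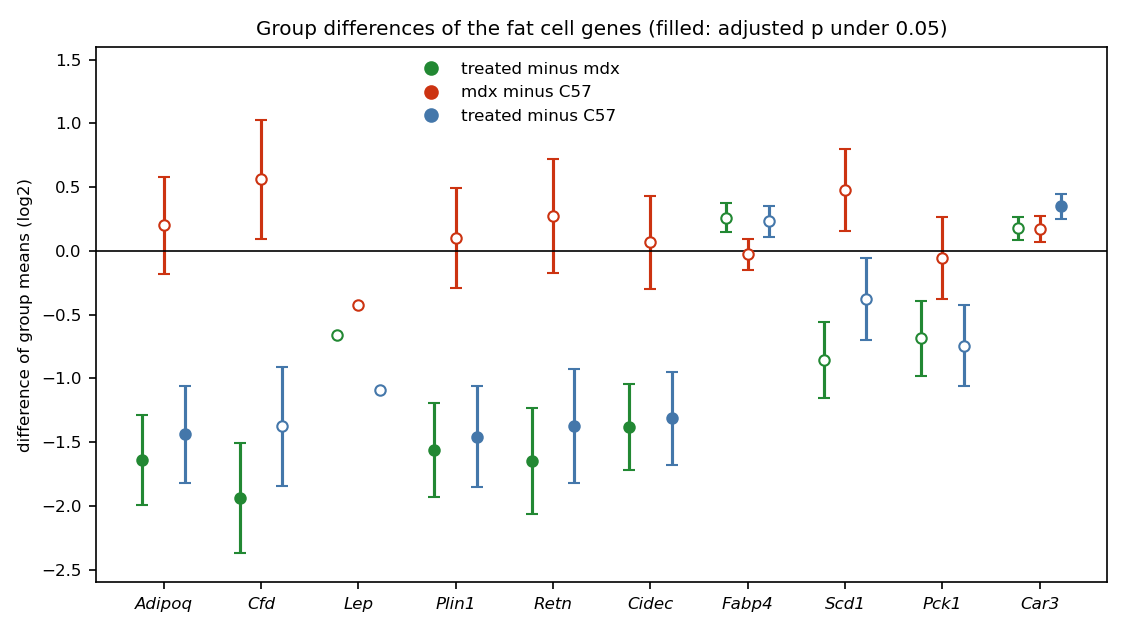
Difference of group means on the log2 scale (vertical axis) for each of the 10 fat cell genes, with error bars for the standard error and filled points for an adjusted p under 0.05 in limma. Lep was not tested and has no error bar. Green and blue points of Adipoq, Cfd, Plin1, Retn and Cidec lie below -1. The red mdx minus C57 points run from -0.425 for Lep to 0.56 for Cfd. The green and blue points of Fabp4 and Car3 lie above 0.

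Most of the 10 genes rose and fell together from mouse to mouse within the groups. After each group mean was subtracted, Pearson's r was computed for the 45 pairs over the 11 mice, with two-sided exact permutation of mice within groups and Benjamini-Hochberg adjustment over the 45. Adipoq and Retn had r = 0.992 and Spearman's rho = 0.982, with an exact permutation p of 2.89e-04, the smallest these 3456 permutations allow (adjusted p = 0.00217 for both). Without mdx 1 and T2, the 2 mice farthest from the median in Adipoq, r was 0.983. All 15 pairs among Adipoq, Cfd, Retn, Plin1, Cidec and Scd1 passed, with Lep and Pck1 (r = 0.80, adjusted exact permutation p = 0.0228) and Scd1 and Pck1 beside them, which makes 17 of 45 by r and 18 by rho.

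Over the 28 pairs that leave out Fabp4 and Car3, a split made after the values were seen, r ran from 0.57 to 0.99 with a median of 0.77 (median rho 0.86). The 2 mice farthest from the median in 1 gene of each pair were then left out, without regard to the other gene. These 28 values then ran from 0.47 to 0.98. The 16 pairs of Fabp4 or Car3 with another gene ran from -0.49 to 0.20, with 0 called by exact permutation of either r or rho. Fabp4 and Car3 with each other gave r = 0.46 (adjusted exact permutation p = 0.281). The 10 probe sets share each mouse's RNA extract and array. Of the mice, C57 3, mdx 1 and T3 were the lowest of their groups in 9, 7 and 6 of the 10 genes, and C57 1, mdx 2 and T2 the highest in 9, 7 and 8.

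**Figure D3:**
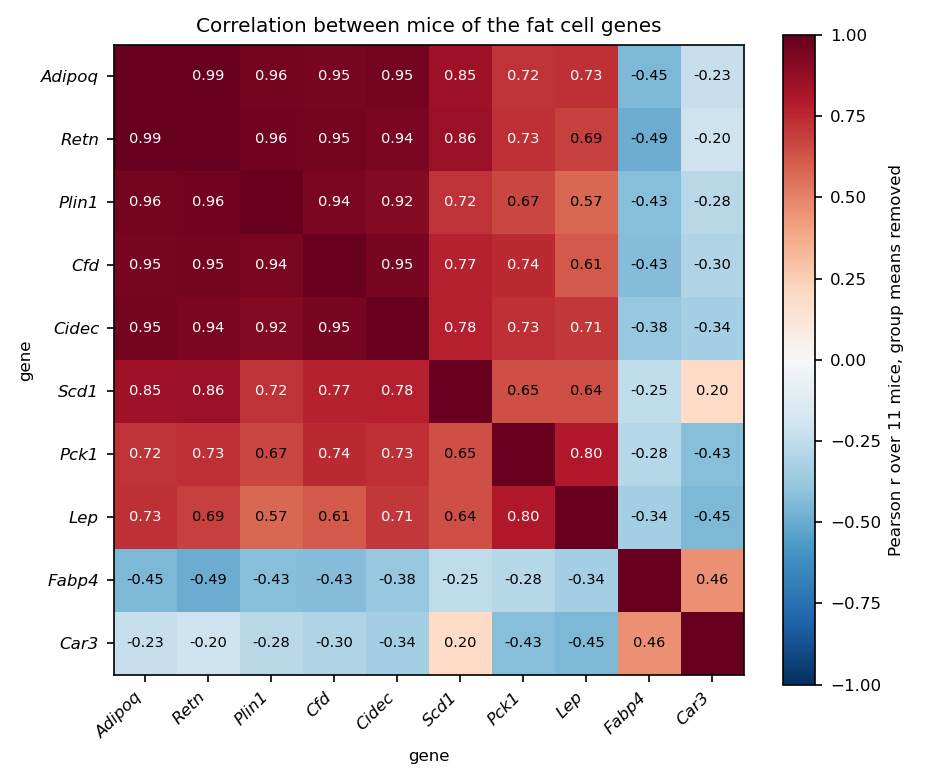
Pearson's r between mice for each pair of the 10 fat cell genes, over 11 mice with group means removed. The colour runs from blue at -1 to red at 1, and the diagonal is a gene with itself. The block of Adipoq, Retn, Plin1, Cfd and Cidec is dark red, while the rows of Fabp4 and Car3 are blue against the others, except for Car3 with Scd1 at 0.20.

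The probe sets outside the group whose signal over the 11 mice was most like the mean of the 10 genes were those of Nnat (r = 0.941), Slc7a10 (0.923), Rac3 (0.907), Folr2 (0.893), Pigf (0.883), Hp (0.879), 1810008A18Rik (0.868), Fbln1 (0.867), Trpv4 (0.866) and Cryl1 (0.860). These values are a description with no test, and they mix differences between groups with those between mice, so that lower signals in treated mice follow from the choice. With group means removed, r was 0.90 for Nnat, 0.89 for Hp, 0.88 for Pigf and 0.87 for Slc7a10, and between 0.66 and 0.78 for the other 6. Hp encodes haptoglobin, the scavenger of free haemoglobin. It read 6.37, 5.68 and 5.71 in C57, 6.39, 7.83, 7.51 and 8.04 in mdx, and 4.66, 6.48, 4.81 and 4.02 in treated mice. As in Adipoq, mdx 1 was the lowest mdx mouse and T2 the highest treated one. Nnat, an imprinted gene that encodes neuronatin, gave 7.14, 6.44 and 5.70 in C57, 5.49, 7.45, 6.02 and 7.74 in mdx, and 4.32, 6.51, 4.66 and 4.63 in treated mice. T2 lay inside the range of the untreated mice, and T1, T3 and T4 lay below all of them.

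Lists of 65 other genes known from fat cells did not move as one. Of the 65, 59 were tested, and 5 were called lower and 6 higher in treated minus mdx, with a median of -0.02. In mdx minus C57 10 were called lower and 7 higher, and in treated minus C57 16 were called lower and 7 higher, with medians of -0.07 and -0.13. Of all tested probe sets, 3.88% were called lower and 7.26% higher in treated minus mdx. The shares were 4.96% and 7.06% in mdx minus C57, and 8.96% and 15.6% in treated minus C57. The lists were chosen with earlier results of these data known, so their counts are a description. Adrb3, Lepr, Mrap, Orm1, Gpr81 and Acvr1c did not reach the minimum signal.

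Of the 10 regulators of the fat cell programme, only Ebf2, an early B cell factor of the brown and beige fat lineage, was called between mdx and treated mice, with a rise of 0.44 (limma, adjusted p = 0.041). Pparg and Cebpa, named here after their values were seen, had log2 differences of 0.12 and -0.54 (limma, adjusted p = 0.441 and 0.124). Cebpa read 6.03, 6.51, 6.43 and 6.78 in mdx mice and 5.50, 6.65, 5.77 and 5.66 in T1 to T4, so T1, T3 and T4 were below all mdx mice and T2 was above 3 of the 4. Pparg lay within 5.60 to 5.78 for mdx mice and 5.78 to 5.85 for treated mice. The abundant Rxra and Rxrg, which pair with PPARG, differed by 0.08 and -0.25 and did not pass.

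Of the 12 genes of fatty acid and triglyceride synthesis, Thrsp and Agpat2 were called lower with treatment and Mlxipl higher. Thrsp, a regulator of lipogenesis, was 8.14, 8.11, 7.83 and 8.27 in mdx and 7.23, 7.59, 7.72 and 7.26 in treated mice, with no overlap (-0.64; limma, adjusted p = 0.018). In mdx it exceeded C57 by 0.51 (limma, adjusted p = 0.037). Agpat2, an acyltransferase whose loss causes lack of body fat, was 7.81, 7.86, 8.13 and 7.87 in mdx and 7.21, 7.67, 7.03 and 7.33 in treated mice, again with no overlap (-0.61; limma, adjusted p = 0.025). Mlxipl, the glucose-responsive factor ChREBP, rose by 0.41 (limma, adjusted p = 0.039). The abundant Gpd1 and Lpin1 differed by -0.23 and 0.19 and did not pass.

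Of the 11 tested genes of the lipid droplet and of lipolysis, Abhd5, the coactivator of triglyceride lipase, rose by 0.37 (limma, adjusted p = 0.049). None was called lower with treatment, though 6 of the 11 differences were negative and 5 positive. Pnpla2, that lipase, and Bscl2, which encodes seipin, had treatment differences of 0.21 and -0.23 and did not pass. In mdx minus C57 this list had 4 genes called lower and 1 called higher, beside 4.96% and 7.06% of all tested probe sets.

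Of the 8 fatty acid uptake genes, Lpl and Cd36 were called higher with treatment. Cd36, a fatty acid transporter of fibres, endothelium and fat cells, was 9.08, 9.11, 8.44 and 7.82 in mdx and 9.45, 9.39, 9.72 and 9.81 in treated mice. All 4 treated mice lay above all mdx mice, by a mean of 0.98 (limma, adjusted p = 0.029). Lpl, the lipase that frees fatty acids from lipoproteins, was 8.83, 8.70, 8.61 and 8.27 in mdx and 9.21, 8.98, 9.04 and 9.29 in treated mice, also without overlap (0.53; limma, adjusted p = 0.025). Acsl1 and Aqp7 differed by 0.54 and -0.01 and did not pass. The largest difference in this list was a fall, that of Angptl4 at -1.07, which did not pass (limma, adjusted p = 0.053). Of the 8 genes, 4 were lower and 4 higher in treated than in mdx mice.

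Among the 10 tested adipokines and receptors, Rbp4, the retinol carrier of plasma, fell by 0.75 (limma, adjusted p = 0.032), and Nampt, an enzyme of NAD synthesis also secreted as visfatin, rose by 0.78 (limma, adjusted p = 0.029). Rbp4 read 5.54, 6.02, 6.09 and 5.95 in mdx and 5.09, 5.72, 4.98 and 4.81 in treated mice, with T2 once more the highest of them. The receptors Adipor1 and Adipor2 differed by less than 0.02 and did not pass. Of the 8 tested genes in a list of others enriched in fat cells, Sncg fell by 0.78 (limma, adjusted p = 0.008) and Tusc5 by 0.40 (limma, adjusted p = 0.039). Sncg, which encodes gamma-synuclein, a protein of fat cells and peripheral nerve, was 7.82, 8.17, 8.01 and 7.81 in mdx and 7.19, 6.86, 7.40 and 7.26 in T1 to T4. T2 was here the lowest treated mouse, unlike in Adipoq. Slc2a4, the insulin-responsive glucose transporter of muscle and fat, and Mest differed by 0.12 and 0.38 and did not pass. The largest difference in this last list was that of Cyp2e1 at -1.03, which did not pass (limma, adjusted p = 0.107). Of its 8 tested genes, 4 were lower and 4 higher.

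**Figure D4:**
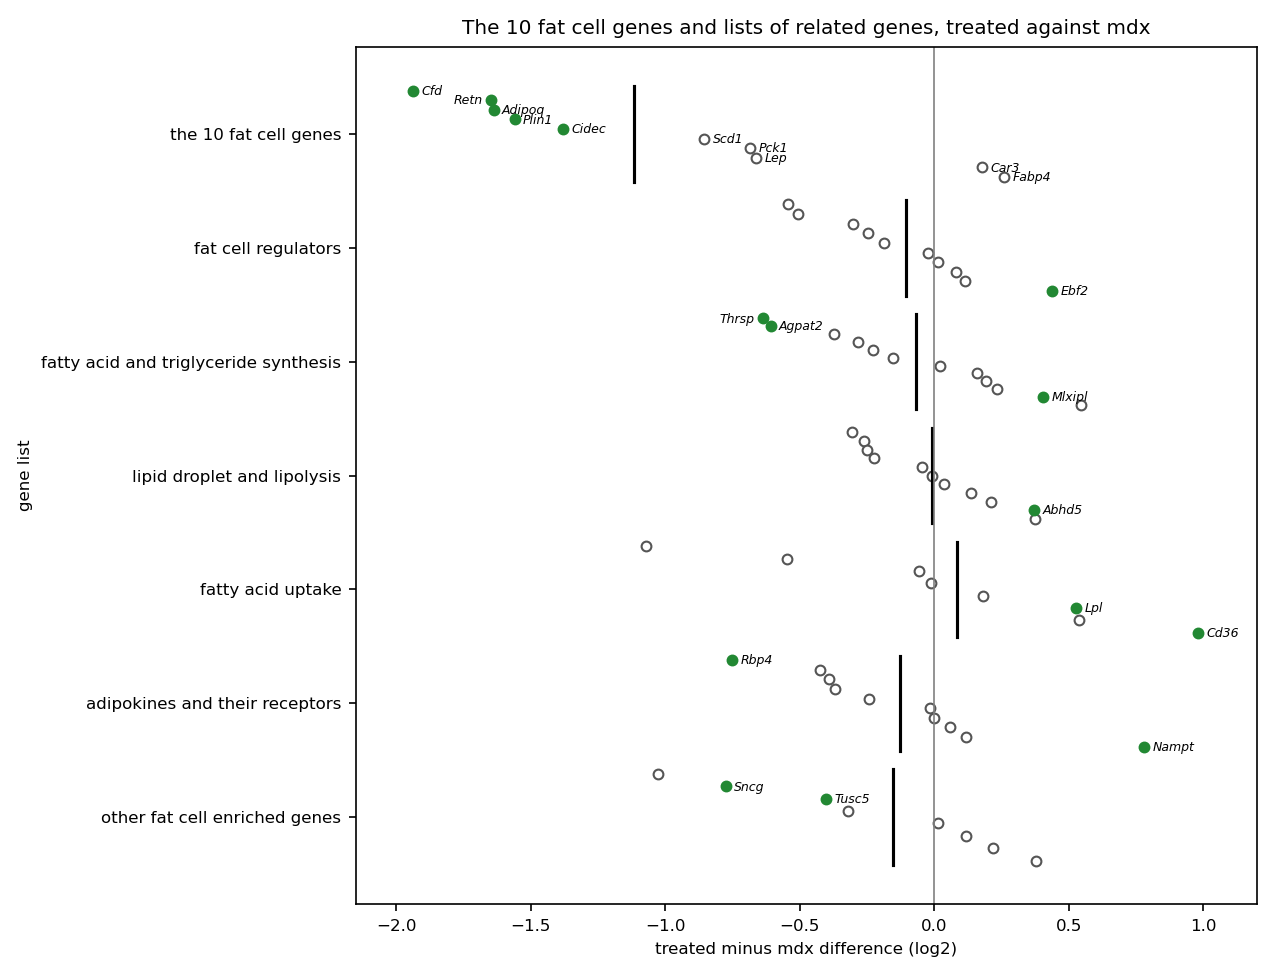
Treated minus mdx difference on the log2 scale (horizontal axis) of the 10 fat cell genes and of the tested genes in 6 lists (vertical axis). Each point is a gene, filled where the adjusted p is under 0.05 in limma, and the black line is the median of the row. The median of the 10 genes is -1.12 and those of the 6 lists lie between -0.15 and 0.08.

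Relatives of the 10 genes by family were also examined. Of 21 relatives, 7 of which are also in the lists above, 16 were tested, with 12 lower and 4 higher in treated than in mdx mice and a median of -0.19. In limma 1 was called lower, Retnlg, and 0 higher, beside 3.88% and 7.26% of all tested probe sets. Retnlg, a resistin-like protein of neutrophils and marrow, was 4.08, 5.37, 5.06 and 5.89 in mdx and 3.33, 3.61, 3.23 and 3.27 in treated mice, which did not overlap. It reached the minimum signal through the mdx mice alone, with linear means of 14 in C57, 37.7 in mdx and 10.3 in treated mice, so its call supports nothing here. Retnla, another resistin-like gene, had a treatment difference of -0.43 (limma, adjusted p = 0.184). Scd2, the desaturase of most tissues outside liver and fat, differed by -0.19 between treated and mdx mice (limma, adjusted p = 0.411) but was higher in mdx than in C57 mice by 0.76 (limma, adjusted p = 0.010). Fabp3, the carrier of muscle fibres, had a treatment difference of -0.20 (limma, adjusted p = 0.330), and Fabp5, the epidermal one, of -0.55 (limma, adjusted p = 0.0651), with both probe sets marked as open to cross-hybridisation. Plin2, Plin3, Plin4 and Plin5, coat proteins of droplets in many cells, differed by -0.26, 0.04, 0.38 and -0.01 and did not pass. Cidea, the relative of Cidec in brown fat, did not pass with treatment (-0.25; limma, adjusted p = 0.230) but was higher in mdx than in C57 mice by 0.86 (limma, adjusted p = 0.003), with the C57 mean below the minimum signal. Pck2, the mitochondrial counterpart of Pck1, differed by -0.05, and the carbonic anhydrases Car2 and Car14 by 0.34 and 0.24, none of which passed (limma, adjusted p = 0.745, 0.116 and 0.341). Car2 did not overlap between treated and mdx mice. C1qtnf1, C1qtnf2 and C1qtnf9, secreted relatives of adiponectin, differed by -0.30, -0.27 and 0.00 and did not pass (limma, adjusted p = 0.120, 0.125 and 0.988). Whether any relative differed from its member in its response was not tested.

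Markers of the other cells in the muscle moved as follows, and their part in the results above was not tested. The 8 muscle fibre markers had 0 calls in any comparison, and their summed intensity was 59016 to 60663 (C57), 60332 to 60656 (mdx) and 58612 to 61629 (treated). Of 8 fibro-adipogenic progenitor markers, Ly6a and Pi16 were lower with treatment (-0.59 and -1.01; limma, adjusted p = 0.016 and 0.040) and 0 were called higher. Over the 8 the median was -0.02, with 4 lower and 3 higher, among them Pdgfra at 0.50 and Dcn at 0.31, which did not pass. Their sums were 9932 to 12470 (mdx) and 9234 to 11198 (treated). Of 7 tested macrophage markers, 2 were called lower and 1 higher with treatment, beside 3.88% and 7.26% of all tested probe sets. The median of these 7 was -0.355, with 6 lower and 1 higher. In mdx minus C57, 6 were called higher, beside 7.06%. The sums of this list were 947 to 1370 (C57), 2573 to 4024 (mdx) and 2132 to 2700 (treated). Of 8 endothelial markers, Pecam1 and Tek were higher with treatment (0.78 and 0.97; limma, adjusted p = 0.028 and 0.033), and the sums were 3107 to 3764 (mdx) and 3456 to 4269 (treated). The median of these 8 was 0.14, with 2 lower and 6 higher, and 0 were called lower. Pecam1 read 8.91, 8.24, 8.78 and 8.81 in T1 to T4, with T2 lowest, as it was for Fabp4. T2 was also the lowest treated mouse for Tek, Cdh5, Kdr and Cldn5, but the highest for Esam and Tie1 and neither for Emcn. Red blood cell and peripheral nerve markers had 0 calls in treated minus mdx. All 4 tested red blood cell markers were lower, with a median of -0.28. Of 4 tested nerve markers 3 were lower and 1 higher, with a median of -0.17. Among 6 brown fat markers only Prdm16 reached the minimum signal, and Ucp1, the defining one, did not. Among 7 epidermal markers only Trp63 did.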

How the data were processed

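RNA from TA sections of 11 mice (3 C57, 4 mdx, 4 treated) was hybridized to 1 array per mouse. The authors made the deposited values with Affymetrix Expression Console by RMA, per the labels and the methods. The deposited intensity is linear, and its log2 lay on a whole hundredth for 100% of values (within 0.0001), so smaller differences are not resolved. RMA draws all arrays to 1 distribution and therefore hides shifts of the whole transcriptome. Deposited positions name no genome build, so chromosomes only are given. Groups came from the labels. No source says that mice were littermates, and p-values measure the spread between these mice.

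The log2 intensities were fitted in R 4.3.3 with limma 3.58.1 (lmFit and eBayes, 3 group means, two-sided), over 14494 probe sets whose mean reached 30 in any of the groups, and a call is a Benjamini-Hochberg adjusted p under 0.05. Of the 10 members 9 passed that minimum. It admits a gene through its highest group. The members and lists were chosen with earlier results of these data known. For each gene outside the members the probe set with the highest mean signal was used. Named were all members, up to 4 called genes with the largest treatment difference and up to 2 uncalled genes of highest signal per list, tested relatives, markers and the 10 most similar genes. Pparg, Cebpa, Angptl4 and Cyp2e1 were named after their values were seen. Exact permutations and promoter searches used Python 3.11.15 with SciPy 1.17.1. The fit was tested on simulated data. Alternatives were other signal minima, scalings, fits, array weights, the methods' t-test, a replicate block, and leaving out each mouse. The number of arrays limits the precision.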

Additional observations from a re-analysis of the deposited data

How the results depend on the processing

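In treated minus mdx, the 5 genes called lower became 2 with a fit of only the 2 groups compared, and 0 with the methods' t-test on log2 or on linear signals after Benjamini-Hochberg adjustment. Unadjusted, at a p under 0.05, that t-test gave 6 lower on either scale. Over all 14494 probe sets tested it gave 1525 lower and 2107 higher on log2 signals, and 1502 and 2091 on linear signals. At a p under 0.01 and a change over 1.5-fold, limits that the study applied to mdx against C57 mice, it gave 0 on either scale. Over all 14494 probe sets these limits gave 91 lower and 247 higher on log2 signals, and 86 and 228 on linear signals. With limma's p the same limits gave 5 of these genes lower and 0 higher, beside 235 and 489 over all probe sets. With array weights the lower calls became 7, with Scd1 and Pck1 added, and the higher ones went from 0 to 1, Fabp4. That fit also moved the differences, from -1.64 to -2.07 for Adipoq, and raised the lower calls of the list genes from 5 to 15. The share of all probe sets called with array weights is not given in any comparison, so such gains are not read as particular to these genes. Leaving out single mice gave 0 to 6 lower and 0 to 1 higher, and the median ran from -1.42 to -0.99. In treated minus C57, the 4 lower calls became 7 with array weights and 0 with either t-test, and the 1 higher call became 2 with array weights and 0 with only the 2 groups compared, with either t-test and with the replicate block. Cfd, at an adjusted p of 0.0503, passed under 6 alternatives, with an adjusted p of 0.00121 with array weights and 0.0416 to 0.0474 with median centring, repeated quantile normalization, averaged probe sets, a robust trended prior or a fit without the mdx mice. Retn did not pass with no minimum signal (0.0685). Without single mice these counts ran from 0 to 6 and from 0 to 2, with medians from -1.44 to -0.90. In mdx minus C57, 0 were called without any mouse, and the median ran from -0.015, without C57 replicate 3, to 0.43. Fabp4 there turned to 0.078 with array weights and Pck1 to 0.026 with the t-test on linear signals. With single mice left out, differences that turned sign ran from -0.035 to 0.51 for Adipoq, -0.083 to 0.43 for Plin1, -0.025 to 0.65 for Retn, -0.11 to 0.43 for Cidec, -0.13 to 0.0275 for Fabp4 and -0.23 to 0.18 for Pck1.

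Of the lists, treated minus mdx had 5 lower and 6 higher. A minimum signal of 100 left 3 lower, only the 2 groups compared left 3 lower and 0 higher, array weights gave 15 lower, and the t-test gave 0 and 0. In mdx minus C57, the 10 lower and 7 higher became 1 and 3 with the t-test. In treated minus C57, the 16 lower became 5 and the 7 higher became 2 with the t-test, and the higher ones became 13 with array weights. Without single mice the lists ran from 1 to 11 lower and 0 to 8 higher, from 5 to 10 and 2 to 8, and from 9 to 20 and 4 to 8. The causes were not tested. The 17 correlated pairs became 39 without subtraction of group means, and ran from 13 to 22 without single mice, with a median r of 0.56 to 0.76.

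Mice with the same number did not pair: their deviations from the group means correlated at -0.30 to 0.15. With the replicate number as a block, list genes in treated minus mdx went to 1 lower and 0 higher, those of mdx minus C57 to 6 and 3, and the higher ones of treated minus C57 to 4. The block also ended the calls of Cidec in treated minus mdx (adjusted p = 0.0543) and of Retn and Car3 in treated minus C57 (0.0519 and 0.0780), by limma.

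The 3 or 4 arrays per group limit all of these counts. With every mouse included, Lep was below the minimum signal of 30 in every group mean, with a linear mean of 29.5 in C57. It passed that minimum and was tested without C57 replicate 2 and without C57 replicate 3. In treated minus mdx it was not called in either case (limma, adjusted p = 0.303 and 0.266). Nor was it called in mdx minus C57 (0.614 and 0.455) or in treated minus C57 (lowest 0.0831).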
